A study of Mus musculus with 6 samples.

Results

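Myc and the Max network are 10 genes, Myc, Mycn, Max, Mxd1, Mxd3, Mxd4, Mxi1, Mnt, Mlx and Mga, whose levels were followed after the noncoding RNA mrhl was silenced. They are 10 of the 18193 genes that the arrays could name, read from all probe sets paired with exactly 1 gene symbol that is one of these names, which gave 26 of the 45037 probe sets that are not controls. Of the 26, 23 were bright enough to be tested, and every gene kept at least 1. GC1-Spg is an established mouse spermatogonial line. In each of 3 independent experiments cells received siRNA at 100 nM, either a scrambled control or one aimed at mrhl, so every sample had been transfected, and RNA was taken 44 h later. Each of the 6 samples (2 groups of 3 biological replicates of 1 cell line) was measured on its own 1-colour array with biotin-labelled cRNA. All values below are log2 expression values as deposited, and each difference is mrhl siRNA minus scrambled siRNA.

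Myc proteins bind DNA only as a pair with Max, at the E-box CACGTG, where they raise genes of growth and cell division. The Mxd proteins, Mxi1 and Mnt also pair with Max, take the same sites and recruit the Sin3 and histone deacetylase repressors, while Mga brings Max into a Polycomb complex that keeps germ cell genes silent in other cells. Mlx stands in for Max as the partner of the glucose-responsive Mondo proteins. In the testis, Myc and Mycn are known for their part in the self-renewal of spermatogonial stem cells.

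Several genes of the network carry the E-box in their own promoters. These stretches are shown because they hold the letters that the network's proteins are known to recognize, while binding was not measured here. Promoters from 250 bases before to 50 after the start site (RefSeq, GRCm38.p6) were matched by symbol for 9 of the 10 genes, all but Myc. CACGTG, which reads the same on both strands, was present in the promoters of 4 of the 9 genes, Max, Mlx, Mnt and Mxd4. It was present in 8.09% of the 27025 genes with a listed promoter and in 7.15% of the 32851 promoters. The windows below run 5′ to 3′ on the strand of the gene, with the E-box in capitals; they lie at chr12:76962226-76962291 (minus strand), chr11:101087210-101087275 (plus), chr11:74830761-74830826 (plus) and chr5:34187904-34187960 (minus).
Max: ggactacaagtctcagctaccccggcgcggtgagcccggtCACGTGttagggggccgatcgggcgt
Mlx: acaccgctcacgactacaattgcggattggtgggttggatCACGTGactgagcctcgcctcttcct
Mnt: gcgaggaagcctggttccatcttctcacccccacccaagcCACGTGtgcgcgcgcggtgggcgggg
Mxd4: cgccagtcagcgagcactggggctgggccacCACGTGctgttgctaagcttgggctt
In Max the E-box begins 3 bases before the start site and so spans it. In Mlx it begins 40 bases before the start site, in Mnt 123 and in Mxd4 219. A match of letters is a description of the sequence and not a binding site.

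Across the network 0 of 23 tested probe sets passed an adjusted p of 0.05 (limma, smallest adjusted p = 0.965), and the percentage over all 33778 probe sets tested was 0. At an unadjusted p under 0.05 stood 1 of the 23, a probe set of Mxd1, against 3.44% of all probe sets. The groups did not overlap in 0 of the 23, against 8.40% of all. On average 10 of the 23 were lower after mrhl siRNA, against 56.2% of all. Read through the brightest tested probe set of each gene, 5 of the 10 genes had a higher and 5 a lower mean after mrhl siRNA, with a median difference of -0.026. The median over all 14885 genes tested was -0.040.

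Replicates with the same number deviated together, so the arrays can also be read as 3 pairs. With the replicate number as a block, 0 of the 23 came under 0.05 after adjustment (limma, smallest adjusted p among them 0.487), the percentage over all probe sets was 0, and 2 of the 23 had an unadjusted p under 0.05, against 10.1% of all. Of the 23, 3 were lower in 3 of 3 pairs, against 23.4% of all, and 5 were higher in 3 of 3 pairs, against 14.1% of all. For 22 of the 23 the means of the 3 replicate numbers spread further apart than the means of the groups. That was so for 83.9% of all probe sets tested. A range of 3 means of 2 arrays tends by construction to be wider than a difference of 2 means of 3 arrays. The count therefore does not measure an effect of the replicate number.

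**Figure D1:**
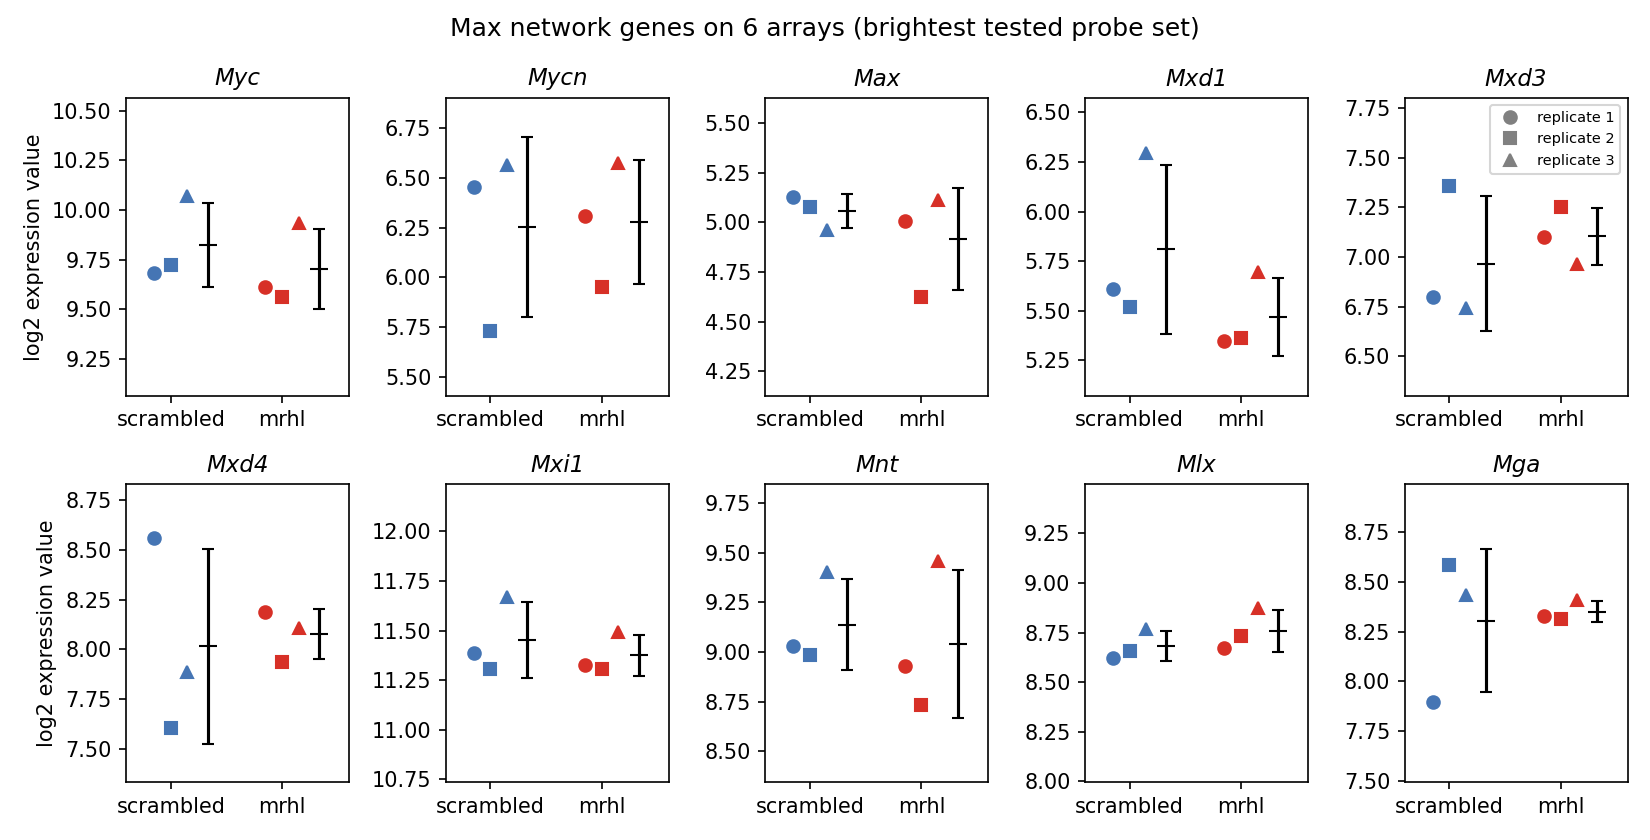
Log2 expression value (vertical axis, each panel spanning the same number of log2 units) of the brightest tested probe set of each Max network gene on the 6 arrays; points are arrays, their shape is the replicate number, and the bars are the mean and SD of the 3 arrays of a group. In Myc, Mycn, Mxd1, Mxi1, Mnt and Mlx the highest array of each group is replicate 3, and in all 10 panels the groups overlap.

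Myc encodes the transcription factor c-Myc, which gives the network its activating arm. Its single probe set read 9.68, 9.72 and 10.07 after scrambled siRNA and 9.61, 9.56 and 9.93 after mrhl siRNA, in the order of replicates 1, 2 and 3. Replicate 3 was the highest array of both groups, and the groups overlapped. Within pairs Myc was lower after mrhl siRNA by small amounts each time, with differences of -0.070, -0.16 and -0.13. The fit gave -0.12 with a 95% interval of -0.54 to 0.29, that is, between 0.689 and 1.23 times the control level, and it did not pass (limma, adjusted p = 0.965). With the replicate block the interval was -0.39 to 0.15 (limma, adjusted p = 0.668). Without scrambled siRNA replicate 3 the difference was 0.00069, in a fit that ignores the pairs and keeps the high array of the same number after mrhl siRNA, whereas the other pairs had -0.070 and -0.16. Myc protein, whose level is set largely by its turnover, was not analysed here.

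The 3 genes most like Myc over the 6 arrays, among 10982 other genes whose brightest probe set was at or above the median level, were Khdc4, Ttc39c and Arhgap8. Their Pearson r with Myc was 0.999, 0.997 and 0.995, each with a Spearman rho of 1, given as a description because they were picked for it. Such likeness was common, since 792 of these genes had an r above 0.9. They shared with Myc a high value in both arrays of replicate number 3. Khdc4, for one, read 8.61 and 8.46 there and between 8.02 and 8.20 on the other arrays. Like Myc, they were also lower after mrhl siRNA in 3 of 3 pairs, as were 26.1% of all genes.

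Mycn encodes N-Myc, the second activating member measured. Its brightest probe set read 6.46, 5.73 and 6.57 after scrambled siRNA and 6.31, 5.95 and 6.58 after mrhl siRNA. Both arrays of replicate number 2 were the low ones, and the group difference of 0.027 (SE 0.266) was far smaller than that drop. The other probe sets had -0.073 (SE 0.157) and -0.31 (SE 0.334), and none passed (limma, adjusted p = 0.965 to 0.995). The dimmer of these read 4.38, 4.39 and 4.43 in the controls and 3.45, 4.88 and 3.94 after mrhl siRNA, so its arrays after mrhl siRNA lay on both sides of the controls. Genes most like Mycn were Stx4a, Nsmce3 and Aldoc (Pearson r of 0.996, 0.993 and 0.992, Spearman rho 0.943 for each, 6 arrays). Of these, Aldoc, an aldolase of glycolysis, read 9.68 and 9.91 in replicate number 2 and 10.10 to 10.37 elsewhere.

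The Mycn promoter is shown for its E2F elements, the letters by which the E2F cell cycle factors are known to control this gene. Both strands were searched for TTTGGCGC and TTTCGCGC, whose matches may overlap, and of the 9 genes matched, Mycn alone had a match. Its 3 matches, of which the first begins 183 bases before the start site, are in capitals in this stretch of chr12:12941977-12942036 (minus strand), where a pair of them overlaps. Such a match is held by 0.813% of all promoters.
Mycn: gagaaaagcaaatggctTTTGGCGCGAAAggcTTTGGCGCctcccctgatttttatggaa

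Max, the shared partner of the Myc, Mxd and Mnt proteins, was read by a single probe set, at 5.13, 5.08 and 4.96 after scrambled siRNA and 5.01, 4.62 and 5.11 after mrhl siRNA. Replicate 2 after mrhl siRNA was the lowest array, while replicate 3 after mrhl siRNA lay above the mean of the controls. The difference of -0.14 (95% interval -0.54 to 0.26) did not pass (limma, adjusted p = 0.965), and without mrhl siRNA replicate 2 it was 0.0049. All 6 values lay under 5.23, the level of the median probe set, so this gene was measured at a dim signal. Tbc1d32, Ttc30a1 and Cetn4 were most like Max (Pearson r of 0.996, 0.983 and 0.981, Spearman rho of 0.943, 1 and 0.943, 6 arrays). All of them had their lowest value in replicate 2 after mrhl siRNA, for example 5.73 for Cetn4 against 6.61 to 6.86 on the other arrays.

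Among the repressive partners of Max, Mxd1 had the largest difference of any of the 10 genes. Mxd1 encodes Mad1, which is known to rise when cells leave the cycle and differentiate. Its brightest probe set read 5.61, 5.52 and 6.30 after scrambled siRNA and 5.35, 5.36 and 5.70 after mrhl siRNA. Each array after mrhl siRNA was lower than the control of the same number, with differences of -0.26, -0.16 and -0.60, although the groups overlapped because replicate 3 was high in both. The fit gave -0.34 (SE 0.236, 95% interval -0.89 to 0.21), 0.79 times the control level, and it did not pass (limma, adjusted p = 0.965, and 0.495 with the replicate block).

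A further probe set of Mxd1 read 5.85, 5.58 and 6.00 after scrambled siRNA and 4.73, 5.01 and 5.70 after mrhl siRNA. The control arrays lay close together, and replicate 3 after mrhl siRNA was inside their range while replicates 1 and 2 were below it. Its difference was -0.66 (SE 0.263, 95% interval -1.28 to -0.047), 0.631 times the control level. Its unadjusted p was 0.0382, position 839 when all 33778 probe sets were ordered by p, and it did not pass the adjustment (limma, adjusted p = 0.965, and 0.487 with the replicate block). Without mrhl siRNA replicate 1 the difference was -0.45, and without mrhl siRNA replicate 3 it was -0.94, the ends of its range when each array was left out.

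The dimmest probe set of Mxd1 was too dim to be tested, with a mean under 3.62, the 25th percentile of mean levels used as the lower limit. It read 3.98, 3.22 and 2.96 in the controls and 2.23, 2.89 and 2.70 after mrhl siRNA, and its groups did not overlap. All 3 probe sets of Mxd1 were therefore lower after mrhl siRNA in 3 of 3 pairs. Both tested probe sets being lower in every pair was not rare: it held for 10.3% of the 3823 genes with 2 tested probe sets.

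Mxd3, which is expressed in dividing cells unlike the other Mxd genes, had positive differences in all its probe sets. The brightest read 6.80, 7.36 and 6.74 after scrambled siRNA and 7.10, 7.25 and 6.96 after mrhl siRNA, a difference of 0.14 (SE 0.201). Replicate number 2 was the highest of both groups, and the control of that number exceeded all arrays after mrhl siRNA. The second had 0.11 (SE 0.157), with pair differences of 0.12, 0.12 and 0.087. The dimmest read 5.27, 5.24 and 5.02 in the controls and 5.78, 5.63 and 5.18 after mrhl siRNA, with pair differences of 0.51, 0.40 and 0.16. Only replicate 3 after mrhl siRNA fell within the range of the controls there. That probe set had a difference of 0.35 (SE 0.191), an unadjusted p of 0.104 without and 0.0335 with the replicate block, and it passed neither adjustment (limma, adjusted p = 0.965 and 0.487). Whether Mxd1 and Mxd3 differ from each other in their response was not tested.

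The promoters of Mxd1 and Mxd3 are shown because these genes had the most extreme brightest-probe differences of the network, one lower and one higher. Each stretch is the 250 bases before the start site, at chr6:86669160-86669409 and chr13:55329732-55329981 (minus strand in both), with the GC box GGGCGG in capitals. On both strands, overlaps allowed, Mxd1 had 6 matches and Mxd3 had 8, and 35.7% of all promoters hold at least 1. The share of promoters with that many matches was not counted, and a link of the matches to the differences was not tested. The box was present in 7 of the 9 matched genes, against 38.2% of all genes with a listed promoter, with up to 4 matches in a promoter of Mnt or Mxi1, 2 in Mycn, 1 each in Mga and Mxd4 and 0 in Max and Mlx. Neither stretch holds CACGTG.
Mxd1: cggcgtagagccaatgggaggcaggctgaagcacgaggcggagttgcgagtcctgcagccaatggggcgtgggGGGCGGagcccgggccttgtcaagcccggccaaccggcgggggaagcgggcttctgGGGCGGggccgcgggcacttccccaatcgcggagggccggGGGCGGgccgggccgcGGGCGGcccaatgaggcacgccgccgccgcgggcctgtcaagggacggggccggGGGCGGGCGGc
Mxd3: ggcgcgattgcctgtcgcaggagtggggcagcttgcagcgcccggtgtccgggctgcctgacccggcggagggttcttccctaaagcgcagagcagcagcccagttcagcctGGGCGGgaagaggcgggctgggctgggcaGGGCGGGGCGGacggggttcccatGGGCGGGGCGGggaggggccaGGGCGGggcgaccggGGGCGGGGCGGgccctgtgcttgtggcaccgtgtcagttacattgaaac

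Mxd4 encodes Mad4, another repressor that pairs with Max or Mlx. Its brightest probe set read 8.56, 7.60 and 7.88 after scrambled siRNA and 8.19, 7.94 and 8.11 after mrhl siRNA. The controls were spread over a wider range, with an SD of 0.491 against 0.127, and enclosed all arrays after mrhl siRNA. The differences of the 4 probe sets were 0.062, 0.24, 0.17 and 0.17, all positive, with SEs from 0.146 to 0.334, and none passed (limma, adjusted p = 0.965 to 0.985). In all 4, scrambled siRNA replicate 2 was the lowest array, and the difference within replicate number 2 was the most positive, from 0.26 to 0.79.

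**Figure D2:**
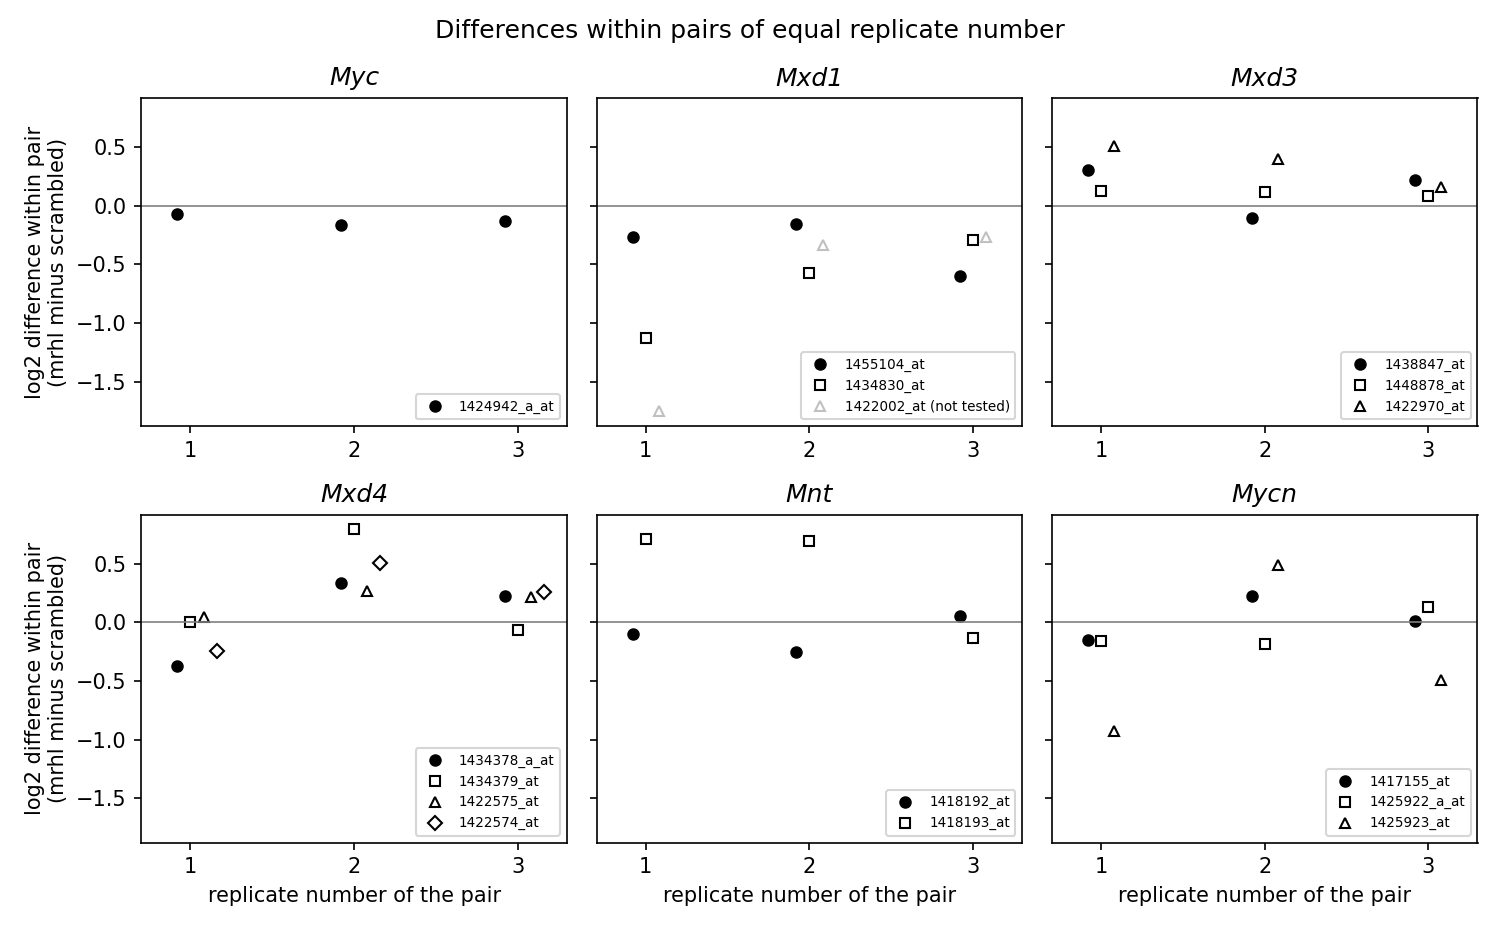
Log2 difference of mrhl siRNA minus scrambled siRNA within each pair of equal replicate number (vertical axis), for the probe sets of 6 genes; filled symbols are the brightest tested probe set, open symbols further ones and grey symbols a probe set too dim to be tested. All points of Mxd1 lie below 0, from -0.16 to -1.75, while those of Mxd4, Mnt and Mycn lie on both sides.

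Mxi1 encodes the Mxd family member once called Mad2. Its brightest probe set read 11.39, 11.30 and 11.67 after scrambled siRNA and 11.33, 11.31 and 11.49 after mrhl siRNA, a difference of -0.080 (95% interval -0.45 to 0.29). The other probe set had 0.047 (SE 0.206), and neither passed (limma, adjusted p = 0.973 and 0.986). The signs of its probe sets differ, so no direction is given for Mxi1. Most like it were Ess2, Garre1 and Fxyd5 (Pearson r of 0.989, 0.988 and 0.987, Spearman rho of 1, 0.771 and 0.829, 6 arrays), which were highest in scrambled siRNA replicate 3.

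Mnt, the repressor present in most cells irrespective of division, had probe sets that disagreed. The brightest read 9.03, 8.98 and 9.40 in the controls and 8.93, 8.73 and 9.46 after mrhl siRNA, a difference of -0.098 (SE 0.225). The other read 4.96, 5.32 and 5.29 in the controls and 5.68, 6.01 and 5.16 after mrhl siRNA, a difference of 0.43 (SE 0.237). In the second, replicates 1 and 2 after mrhl siRNA were above every control and replicate 3 was not. Neither passed (limma, adjusted p = 0.976 and 0.965), and no direction is given for Mnt.

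Mlx, the partner of the Mondo proteins, had the narrowest interval among the brightest probe sets. It read 8.62, 8.66 and 8.77 after scrambled siRNA and 8.67, 8.73 and 8.87 after mrhl siRNA, with pair differences of 0.050, 0.074 and 0.11. Its difference was 0.078 (95% interval -0.24 to 0.40), and its other probe set had -0.044 (SE 0.167). Mga, the scaffold that joins Max to a Polycomb complex, had a pair of probe sets of nearly equal brightness. One read 7.90, 8.59 and 8.43 in the controls and 8.33, 8.31 and 8.41 after mrhl siRNA, a difference of 0.045 (SE 0.20) in which the first control was the low array. The other read 8.38, 8.37 and 8.25 in the controls and 8.39, 8.17 and 8.34 after mrhl siRNA, a difference of -0.033 (SE 0.139). A further, dimmer probe set had 0.20 (SE 0.183), higher in 3 of 3 pairs, and the other 2 of the 5 were too dim to be tested, with differences of -0.14 and -0.13. No probe set of Mlx or Mga passed (limma, adjusted p = 0.965 to 0.986).

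**Figure D3:**
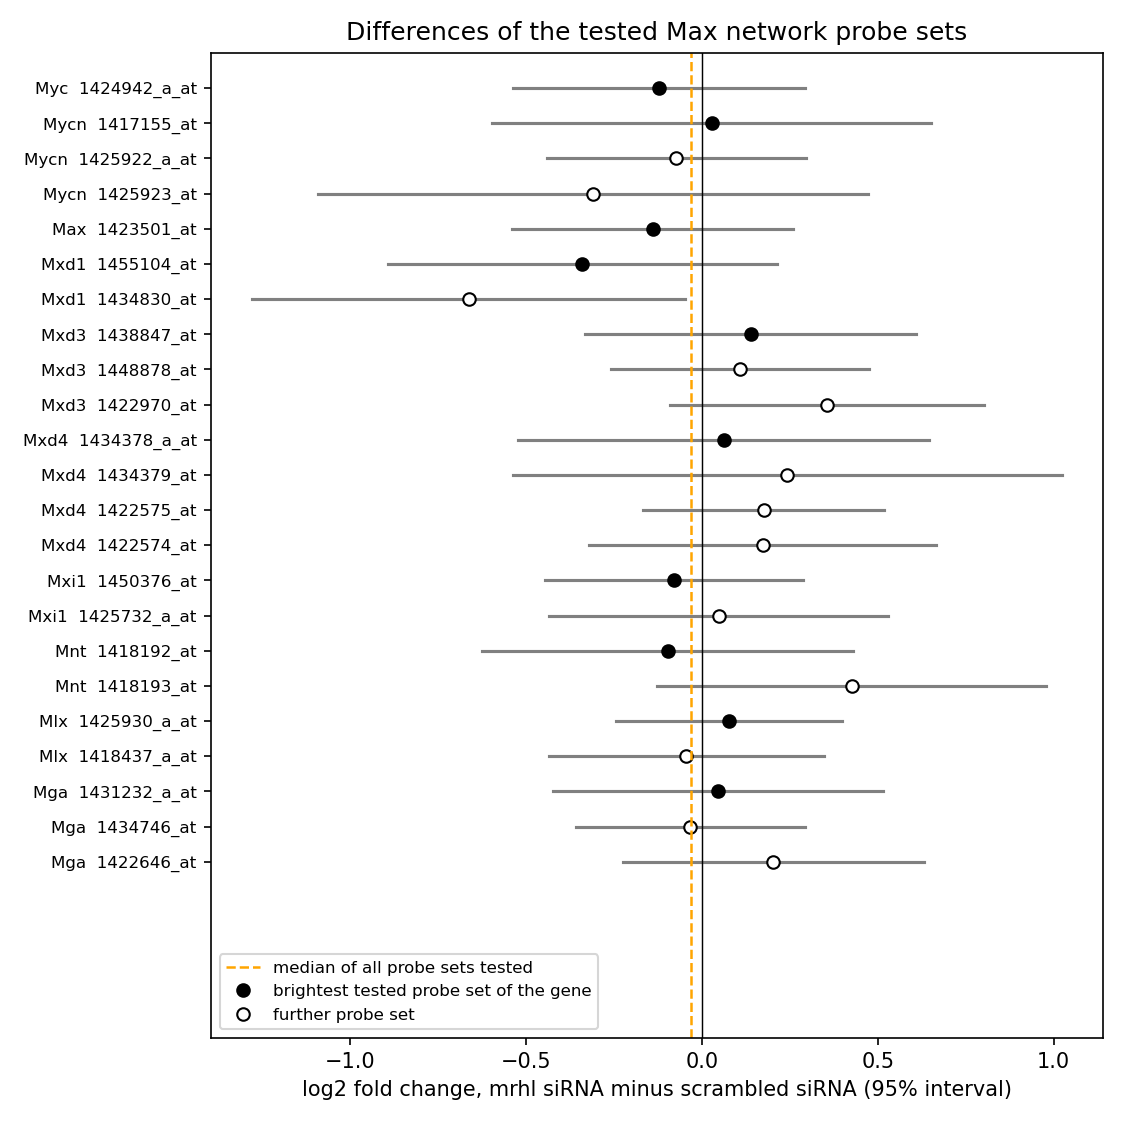
Log2 fold change of mrhl siRNA over scrambled siRNA (horizontal axis) with its 95% interval for the 23 tested probe sets, filled for the brightest of each gene; the dashed line is the median of all probe sets tested, -0.033. A single interval, that of the further Mxd1 probe set from -1.28 to -0.047, does not include 0 before adjustment.

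Around the network, 12 lists of genes were read through their brightest tested probe sets, with 0 genes past an adjusted p of 0.05 in any of them (limma). The activated targets of Myc numbered 102 tested genes over 5 lists. Of these 68 were lower and 34 higher on average, where 57.9% of all genes were lower, with a median of -0.040, like that of all genes. Lower in 3 of 3 pairs were 26 of the 102, against 26.1% of all genes, and 15 were higher in 3 of 3 pairs, against 14.5%. At an unadjusted p under 0.05 stood 2 of the 102, against 2.84% of all genes, and with the replicate block also 2, against 9.03%. The groups did not overlap in 6 of the 102, against 8.44%. The median of the 102 was 0.056 within replicate number 1, -0.16 within number 2 and -0.068 within number 3. Over all genes tested these medians were -0.024, -0.079 and -0.026.

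Ribosome biogenesis, the group most closely tied to Myc, held 32 tested genes, 21 lower and 11 higher, with a median of -0.027. Ncl, which encodes the nucleolar protein nucleolin, had -0.019 (SE 0.157), and its 4 other probe sets lay between -0.085 and 0.076. The smallest p belonged to Utp20, of the machinery that processes the small subunit RNA, with -0.29 (SE 0.168), and to Polr1c, a subunit of RNA polymerases I and III, with -0.26 (SE 0.165). The median of this list was 0.11 within replicate number 1, -0.18 within number 2 and -0.024 within number 3. All genes tested had -0.024, -0.079 and -0.026.

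Of 23 genes of nucleotide, polyamine and one-carbon synthesis, 14 were lower and 9 higher, with a median of -0.026. Cad, whose product starts pyrimidine synthesis, read 9.09, 8.75 and 9.05 after scrambled siRNA and 9.58, 9.62 and 9.07 after mrhl siRNA. Replicates 1 and 2 after mrhl siRNA were above all controls, and replicate 3 lay within them. Its difference was 0.46 (SE 0.20), and its other probe sets had 0.37 (SE 0.163) and 0.28 (SE 0.161), none of which passed (limma, adjusted p = 0.965). Srm, the spermidine synthase, had 0.18 (SE 0.139) without overlap of the groups, and Odc1, which makes the polyamine precursor putrescine, had -0.025 (SE 0.29).

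Of 18 translation and tRNA genes, 12 were lower and 6 higher, with a median of -0.073. Here stood both target genes with an unadjusted p under 0.05. Pa2g4, which encodes the growth regulator Ebp1, read 9.93, 9.30 and 9.25 in the controls and 10.35, 10.01 and 10.08 after mrhl siRNA, without overlap. Its difference was 0.65 (SE 0.219), while its 4 other probe sets had values from 0.051 to 0.33. Iars, the isoleucyl-tRNA synthetase, read 9.97, 10.28 and 10.24 in the controls and 9.66, 9.79 and 9.92 after mrhl siRNA, also without overlap, a difference of -0.38 (SE 0.156). Its other probe set had -0.34 (SE 0.166). Neither gene passed (limma, adjusted p = 0.965).

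The remaining targets lay within the same bounds. Among 17 cell cycle targets 12 were lower, with a median of -0.12, the lowest of the 5 target lists. There the G1/S cyclin gene Ccne1 had -0.28 (its other probe set -0.077) and Cdca7 had 0.21. Among 12 genes of glucose and glutamine use 9 were lower, with a median of -0.059. The glutamine carrier gene Slc38a5 had 0.27 at a dim level of 3.65 in the controls, and the pyruvate dehydrogenase kinase gene Pdk1 had -0.17. The other probe sets of Pdk1 had -0.17, -0.057 and 0.12, so their signs differ.

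Among 12 tested genes listed as lowered by Myc, 8 were higher, where 42.1% of all genes were, and 4 lower, with a median of 0.099. Higher in 3 of 3 pairs were 3 of them, against 14.5% of all genes, and lower in 3 of 3 pairs also 3, against 26.1%. With the replicate block 2 were higher and 1 was lower at an unadjusted p under 0.05 (limma). Of all genes 9.03% came under that limit, in either direction. The growth arrest gene Gas1 had 0.29 (SE 0.164) in its brightest probe set and 0.71 (SE 0.289) and 0.53 (SE 0.342) in the others. Dlk1 had 0.58 (SE 0.266), from a dim 4.27 to 4.84. Cdkn1a, which encodes the cyclin-dependent kinase inhibitor p21, had 0.14 (SE 0.255), and its other probe set had -0.066. The lowest of the list, named after its values were seen, was the stress-induced gene Gadd45a, with -0.40 (SE 0.228) and a lower value in 3 of 3 pairs. None passed (limma, adjusted p = 0.965 for Gas1, Dlk1 and Gadd45a, and 0.487 for Gadd45a with the replicate block). The median of this list was -0.063, 0.20 and -0.041 within replicate numbers 1, 2 and 3, where all genes tested had -0.024, -0.079 and -0.026.

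**Figure D4:**
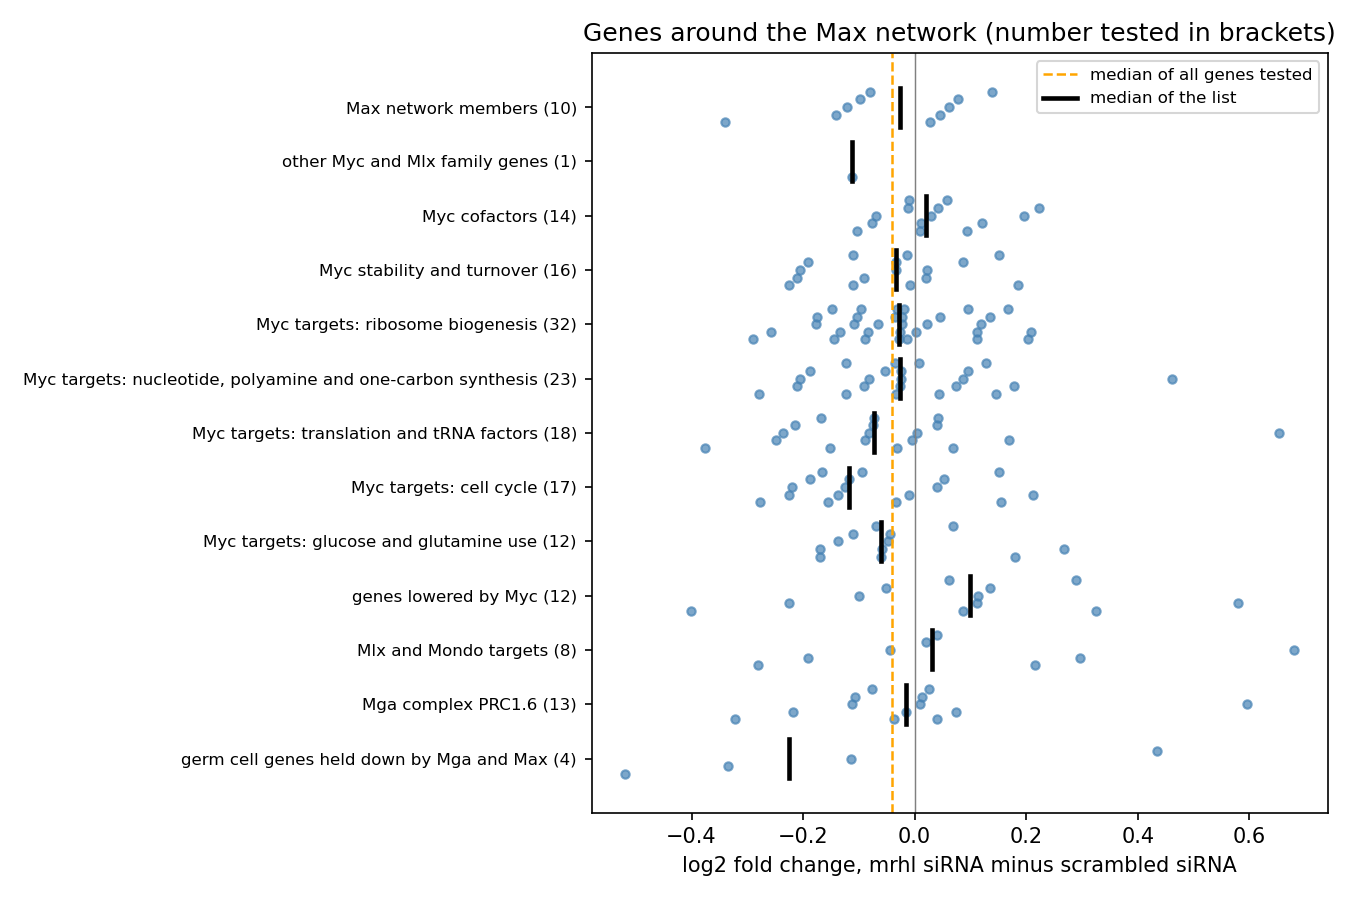
Log2 fold change of mrhl siRNA over scrambled siRNA (horizontal axis) for each tested gene of the Max network and of 12 lists around it; points are genes read through their brightest tested probe set, black bars are list medians and the dashed line is the median of all genes tested. List medians of 8 or more genes lie between -0.12 and 0.099. The list of 4 germ cell genes has -0.22, and the list with 1 tested gene has -0.11.

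Cofactors of Myc and regulators of its stability were all measured above the level of the median probe set. Of 14 cofactors 9 were higher, with a median of 0.020. The acetyltransferase genes Kat2a and Kat5 had 0.22 (SE 0.143) and 0.20 (SE 0.168). Their other probe sets were 0.22 and 0.47 for Kat2a and 0.12 for Kat5. The groups did not overlap in 1 of the 14, the brightest probe set of Kat2a, against 8.44% of all genes. Of 16 regulators of stability 11 were lower, with a median of -0.033. The deubiquitinase gene Usp37 had -0.23 (SE 0.145), with -0.012 in its other probe set. In its brightest probe set the groups did not overlap, in 1 of the 16. Gsk3a, a kinase that marks Myc for destruction, had 0.19 (SE 0.142). Gsk3b of the same list, named after its values were seen, went the other way, with -0.19 (SE 0.170).

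On the Mlx side, the partner gene Mlxip was the only tested gene among Mycl, Mlxip and Mlxipl, with -0.11 (SE 0.206). Among 8 targets of the Mlx and Mondo pair 5 were higher, with a median of 0.030. Txnip, the glucose-induced arrestin that limits glucose uptake, read 9.83, 9.78 and 10.45 after scrambled siRNA and 9.61, 9.47 and 10.14 after mrhl siRNA. It was lower in 3 of 3 pairs, and its arrays were highest in replicate number 3, as those of Myc were. Its difference was -0.28 (SE 0.251), with an unadjusted p of 0.0454 with the replicate block that did not pass (limma, adjusted p = 0.492). Its other probe set had -0.13. Arrdc4, a further arrestin gene under the same control, had 0.020 in its brightest probe set and -0.67 (SE 0.257) in the other. That other probe set was lower in 3 of 3 pairs, with an unadjusted p of 0.0334 without and 0.0027 with the replicate block (limma). It passed neither adjustment (limma, adjusted p = 0.965 and 0.487). Tkfc, a triokinase of fructose use, had 0.68 with an SE of 0.525.

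On the Mga side, 13 tested genes of its Polycomb complex had a median of -0.016, with 6 higher and 7 lower. Ring1, one of the ubiquitin ligases of the complex, read 6.51, 5.53 and 5.76 in the controls and 7.02, 6.45 and 6.12 after mrhl siRNA. It was higher in 3 of 3 pairs while the groups overlapped, a difference of 0.60 (SE 0.317). The deacetylase gene Hdac2 had -0.32 (SE 0.173), with -0.35 and -0.035 in its other probe sets. Of the 14 germ cell genes on the array that Mga and Max hold down elsewhere, 4 were bright enough to be tested, 3 of them lower and 1 higher. Their median was -0.22, and only 1 of the 4 reached the level of the median probe set. Of all genes 57.9% were lower. At an unadjusted p under 0.05 stood 1 of the 4 (limma), against 2.84% of all genes, and with the replicate block 2, against 9.03%. The groups did not overlap in 1 of the 4, against 8.44%. Sycp3, of the synaptonemal complex, read 4.97, 5.38 and 4.78 in the controls and 4.45, 4.42 and 4.71 after mrhl siRNA, without overlap, a difference of -0.52 (SE 0.193). Tdrkh, of the piRNA pathway, had -0.33 (SE 0.203). The other two, named after their values were seen, were Taf7l with -0.11 (SE 0.152) and Stra8, a gene of meiotic entry, with 0.43 (SE 0.365). Stra8 read 4.33, 2.91 and 3.19 in the controls and 3.64, 4.21 and 3.88 after mrhl siRNA, so the controls enclosed the other arrays. None of these genes passed (limma, adjusted p = 0.965).

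The silenced RNA itself was not read, because 0 probe sets were paired with mrhl, and the quantitative PCR named by the submitters is not used here. Phkb, within which mrhl lies, went from 7.62 ± 0.060 (SD, n = 3) to 7.37 ± 0.013 (SD, n = 3). Its difference was -0.25 (SE 0.129), and it did not pass (limma, adjusted p = 0.965, and 0.505 with the replicate block). Its groups did not overlap, as in 8.44% of all genes. It was lower in 3 of 3 pairs, as were 26.1% of all genes. Array medians differed by at most 0.11, and precision is limited by the number of arrays, with a median SE of a difference of 0.192 without and 0.132 with the replicate block. Of 13 spermatogonial markers on the arrays 5 were at or above the median level (Bcl6b, Etv5, Gfra1, Id4 and Uchl1), where 60.4% of all genes on the arrays were, and Dazl, Ddx4 and Neurog3 were under the limit for testing. Of 9 Sertoli cell markers 6 were at or above that level (Dhh, Gata4, Kitl, Rhox5, Sox9 and Wt1). It was 4 of 7 for peritubular and fibroblast markers, 1 of 5 for Leydig cell markers and 2 of 6 for blood and endothelial markers. None of the tested markers passed (limma, adjusted p = 0.965 or more).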

How the data were processed

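The authors deposited log2 expression values, a single value for every probe set on every array. GCOS and PLIER are named in the submitters' processing notes; for their settings and for any normalization the sources used here give nothing. Base 2 was inferred from the spread of the values, some of them negative. Of 45101 rows, 64 control rows and the probe sets with a mean under the 25th percentile (3.62) were left out. GEO's probe table paired 34945 probe sets with 1 symbol, 932 with several and left 9160 unlisted; gene IDs of all 10 members matched GRCm38.p6. Groups were compared with limma 3.58.1 (lmFit, eBayes) in R 4.3.3, with Benjamini-Hochberg adjustment over all tested probe sets. A gene was read through its brightest tested probe set. Equal replicate numbers had correlated deviations (r = 0.534, 0.201 and 0.567, with unequal numbers at -0.518 to 0.0684), so they were read as pairs. Deviations were taken from the mean of each group, so positive values for equal numbers by themselves push those for unequal numbers down. The fit without the block was tested on simulated data in which all arrays were independent. Those data held no deviation shared by equal replicate numbers, so that test does not cover the pairs. Members, lists and rules (all member probe sets, the 2 list genes of smallest p, and Txnip, Arrdc4, Odc1, Ncl, Cad, Cdkn1a and Phkb) were chosen with earlier results of these data known. Figures used matplotlib 3.10.9.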

Additional observations from a re-analysis of the deposited data

How the results depend on the processing

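The alternatives were quantile normalization, equal array medians, no filter or one at the median level, a variance model that was trended and robust, array weights, the replicate block, each array left out, and genes read as the mean over their probe sets. Under all of them 0 probe sets of the network, and 0 listed genes, passed (limma, smallest adjusted p 0.487 in both); over all probe sets, which the mean of probe sets does not count, 0 passed as well. The replicate block changed no call. Mxd1 stayed negative (-0.50 to -0.096) and Mlx and Mxd3 positive in all alternatives. The mean of probe sets gave 0.017 for Mlx, whose other probe set had -0.044, so no direction is given for Mlx. One further probe set of each of Mxd1 (-0.66) and Mxd3 (0.35), added after seeing the data, kept its sign in the 13 alternatives that apply to a single probe set. The filter settings, the replicate block and the variance model cannot change the difference of a probe set. Those alternatives therefore do not test whether a sign holds. With array weights Mycn became -0.073 and Mga -0.014, and with the mean of probe sets Mycn became -0.12 and Mnt 0.16. When each array was left out, ranges that crossed 0 were -0.24 to 0.00069 for Myc, -0.23 to 0.19 for Mycn, -0.24 to 0.0049 for Max, -0.14 to 0.33 for Mxd4, -0.15 to 0.028 for Mxi1, -0.31 to 0.056 for Mnt and -0.16 to 0.19 for Mga, and -0.15 to 0.060 for the median of the 10 genes. Mxd4 and Mycn turned negative without scrambled siRNA replicate 2, Mycn also without mrhl siRNA replicate 3, and Mga without scrambled siRNA replicate 1. Myc, Mxi1, Mnt and Mxd4 (-0.0043) turned sign without scrambled siRNA replicate 3, and Max and Mnt without mrhl siRNA replicate 2. The cause was not tested. Max was under the filter at the median level. These signs are within the error that 3 arrays a group allow.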
